A study of Rattus norvegicus with 30 samples.

Results

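Expression of 10 genes that mark T cells and cytotoxic lymphocytes was followed in the injured sciatic nerve and in the ganglia that feed it. The members were taken by name: every probe whose gene name in the array files was Cd3e, Cd3d, Cd3g, Cd4, Cd8a, Cd8b, Cd2, Lck, Prf1 or Gzmb, which gave 12 probes of 41012, and 10 of 18017 gene names. All 10 genes were tested in both tissues. RNA came from adult male Sprague-Dawley rats in which a stretch of the left sciatic nerve had been cut out. The proximal sciatic nerve (SN) and the lumbar dorsal root ganglia (DRG) were taken on days 0, 1, 4, 7 and 14 after resection, and 3 Agilent one-color arrays were run for each tissue and day (30 arrays). The 0 d samples were the controls. The labels do not say whether the nerve had been exposed in those rats, nor how many rats went into 1 array, so p-values measure the spread between arrays only.

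T cells recognise peptides with a receptor whose signal is carried into the cell by the CD3 chains, encoded by Cd3e, Cd3d and Cd3g. The coreceptors CD4 and CD8 bind class II and class I molecules of the major histocompatibility complex, and the kinase Lck, held by the coreceptor tails, phosphorylates the CD3 chains. CD2 is an adhesion receptor of T cells and natural killer (NK) cells, while perforin (Prf1) and granzyme B (Gzmb) are the pore former and the protease that cytotoxic cells release from their granules. In the rat, CD4 is also carried by macrophages, and CD8 is also found on NK cells and on some macrophages, so these 2 coreceptors are less specific than CD3. A cut nerve is known to draw neutrophils first, then macrophages, with T cells later. Since each sample was a whole piece of tissue, fewer cells of a type and less RNA per cell cannot be told apart.

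The sequences shown are those of probes on which the results turn, and of the 3 probes that shared the name Gzmb. All are written 5′ to 3′ in lower case with no part marked. Each probe had 60 bases, and the first 30 are given for Cd8a and Gzmb. Positions are those given in the array files, on build rn4.
Cd3e (chromosome 8, 47950313 to 47950372, minus strand): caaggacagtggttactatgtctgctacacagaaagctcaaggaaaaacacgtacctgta
Cd8a (chromosome 4, 104593483 to 104593542, plus strand): tgtaaaatggcgccactaggaagccacaac
Gzmb (chromosome 15, 35195458 to 35195517, minus strand): ctgtgacaacccagctgacatctgctagtt
granzyme-like protein III (chromosome 15, 34900680 to 34900739, minus strand): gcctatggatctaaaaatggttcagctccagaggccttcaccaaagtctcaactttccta
granzyme-like protein I (chromosome 15, 35062817 to 35063001, minus strand, over a gap): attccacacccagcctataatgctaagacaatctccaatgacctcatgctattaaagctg
The files name the transcript of the granzyme B probe as Gzmb, and those of the other probes with that gene name as granzyme-like proteins III and I. The longest run of bases shared by any pair of these 3 probes was 7, so they read different stretches. The 3 lay within 295 kb on chromosome 15. The probe of the named Gzmb transcript was the brightest and stands for the gene below, and the granzyme-like probes are given apart. The CD3 probes lay within 26 kb on chromosome 8 and the CD8 probes within 41.1 kb on chromosome 4. Each of the other 9 genes had 1 probe.

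Values are normalized signals, the log2 of the scanner's processed signal minus the 75th percentile of its array, so 0 is the level of a probe at that percentile and a difference of 1 is 2-fold. The arrays had between 26941 and 35573 probes well above background, fewest in DRG on day 0. The dimmest detectable signal was highest on DRG 0 d replicates 2 and 3 (-5.06 and -5.42), so detection there and on later days rests on unequal limits. Replicate arrays correlated with r between 0.985 and 0.997 over probes. The tissue labels held: all 9 sensory neuron genes of a list were lower in SN than in DRG on day 0 (median log2 difference -6.78), and 6 of 8 Schwann cell and myelin genes were higher. Over all probes 16.9% were lower and 19.3% higher. The arrays lay on 8 slides, none of which held more than 1 day of the same tissue. They were scanned on 3 occasions, first 0 d, then 1, 4 and 7 d, then 14 d, with DRG 7 d split over the last 2. Within a tissue, a change from 0 d and a slide or scan difference cannot be told apart. On day 0 the DRG arrays were uneven for the granule genes, and values without replicate 3 of that group are given where they matter.

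All 10 genes rose in the nerve. On day 1, 6 of 10 were called higher than on day 0 (Cd3e, Cd3d, Cd8a, Cd8b, Cd2 and Lck), against 18.6% of all probes tested, where called means an adjusted p under 0.05 in limma and a change over 2-fold. On days 4, 7 and 14 all 10 were called higher, against 15.9%, 18.1% and 14.3% of probes. On no day was a member called lower than 0 d, against 3.43%, 6.78%, 6.81% and 5.46% of probes on days 1, 4, 7 and 14. The median log2 change of the members was 1.26 on day 1, 2.66 on day 4, 3.58 on day 7 and 3.22 on day 14, while the median over all probes stayed between 0.113 and 0.163. On days 4, 7 and 14 the arrays of each of the 10 genes lay wholly above those of 0 d. The share of all probes that did so was not counted.

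**Figure D1:**
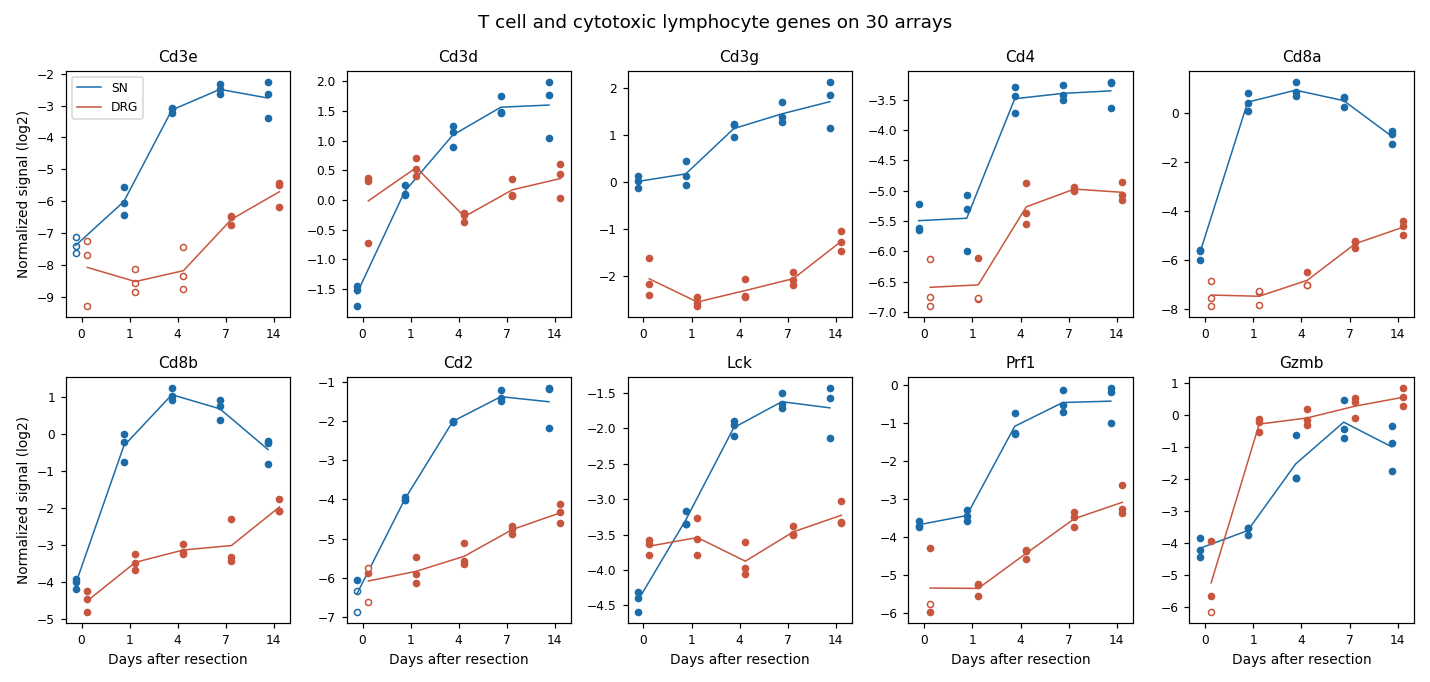
Normalized signal (log2) of the 10 genes on each of the 30 arrays, by day after resection, in SN (blue) and DRG (red); lines join the means of 3 arrays, filled points were well above background and open points were not. In SN the Cd8a points jump from below -5.60 on day 0 to above 0.08 on day 1, while Cd3e climbs in steps to 7 d.

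The largest rise in the nerve was in the CD8 coreceptor. Cd8a, the alpha chain, read -5.60, -6.02 and -5.62 on the arrays of 0 d and 0.80, 0.082 and 0.39 on those of 1 d. The groups were far apart, and the log2 change was 6.17 ± 0.22 (SE, n = 3 arrays a day; 72.1-fold; limma adjusted p = 4.19e-09). On day 4 the arrays read 0.66, 0.83 and 1.25, which was 6.66 ± 0.22 above 0 d, or 101-fold. Cd8a was thus near its highest level after a single day, and 4 d was not called higher than 1 d (0.49 ± 0.22, adjusted p = 0.0933). Cd8b, the beta chain, also rose on day 1, by a smaller step. Its means were -4.04 ± 0.13 (SD, n = 3) on day 0, -0.32 ± 0.39 on day 1 and 1.07 ± 0.17 on day 4. The later 2 were 13.2-fold and 34.6-fold above 0 d (adjusted p = 1.46e-07 and 7.63e-09). Unlike Cd8a, Cd8b was called higher on day 4 than on day 1 (2.62-fold, limma adjusted p = 0.000476).

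CD4 did not share this early step. The Cd4 arrays read -5.62, -5.65 and -5.22 on day 0 and -5.07, -5.30 and -6.00 on day 1, which overlapped (0.040 ± 0.22, adjusted p = 0.887). They rose to between -3.72 and -3.29 on day 4 and stayed between -3.63 and -3.21 on days 7 and 14. Cd4 was 4.03-fold above 0 d on day 4, 4.29-fold on day 7 and 4.42-fold on day 14 (adjusted p = 9.09e-06, 6.61e-06 and 8.28e-06). With a normexp background its calls on days 4 and 7, and for 4 d against 1 d, were lost. With normexp and quantile normalization together, that on day 14 was lost as well.

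The CD3 chains differed among themselves. Cd3e, the chain most used to define T cells, was well above background on no array of SN on day 0, where it read -7.39, -7.63 and -7.10, and on all 12 later arrays. It read -6.43, -6.04 and -5.54 on day 1, -3.23, -3.09 and -3.10 on day 4, -2.66, -2.34 and -2.49 on day 7, and -2.26, -3.40 and -2.63 on day 14. Each day to 7 d lay wholly above the day before it. Against the dimmest signal that could be told from background, Cd3e was at least 1.32-fold higher on day 1, at least 9.61-fold on day 4, at least 15-fold on day 7 and at least 12.4-fold on day 14 (adjusted p = 0.000892, 1.63e-07, 6.62e-08 and 1.53e-07). The call on day 1 was lost with quantile normalization, and with a normexp background the change there was -0.118.

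Cd3d and Cd3g, the delta and gamma chains, were above background on all 30 arrays. They thus gave signal also where Cd3e was undetected, in SN on day 0 and in DRG on days 0, 1 and 4. In SN on day 0 the mean was -1.58 for Cd3d and 0.0028 for Cd3g, against -7.37 for Cd3e. Which cells gave these signals was not tested. Cd3d had means of -1.58 ± 0.18 (SD, n = 3) on day 0 and 0.15 ± 0.099 on day 1, a 3.31-fold rise (adjusted p = 2.05e-05), and was 8.86-fold above 0 d on day 7 and 9.08-fold on day 14. Cd3g moved least of the 10 genes from 4 d on, and its arrays overlapped on days 0 and 1 (log2 change 0.16 ± 0.22, adjusted p = 0.547). It was 2.18-fold above 0 d on day 4, 2.71-fold on day 7 and 3.25-fold on day 14 (adjusted p = 0.000843, 0.000136 and 5.12e-05). The call of Cd3g on day 4 was lost with a normexp background.

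Cd2 and Lck, like Cd3e, rose on day 1 and again by 4 d. Cd2 was well above background on 1 of 3 arrays on day 0, where it read -6.88, -6.05 and -6.33, and on every later SN array. It read -4.02, -4.02 and -3.95 on day 1 and -1.49, -1.22 and -1.42 on day 7, with log2 changes from 0 d of 2.42 ± 0.25 and 5.04 ± 0.25 (5.37-fold and 33.0-fold; adjusted p = 8.49e-06 and 3.22e-08). Lck was 2.21-fold above 0 d on day 1, 5.46-fold on day 4, 7.04-fold on day 7 and 6.62-fold on day 14 (adjusted p = 6.23e-05, 1.62e-07, 6.62e-08 and 1.34e-07). With a normexp background the calls of Cd2 and Lck on day 1 were lost, and with quantile normalization that of Lck. The Lck arrays read -4.60 to -4.32 on day 0 and -1.72 to -1.49 on day 7.

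The granule genes were late in the nerve. Prf1 read -3.72, -3.57 and -3.74 on day 0 and -3.58, -3.44 and -3.28 on day 1, and these overlapped (0.24 ± 0.24, adjusted p = 0.388). It read -1.27, -1.25 and -0.72 on day 4 and -0.52, -0.13 and -0.71 on day 7, and was 6.04-fold, 9.33-fold and 9.57-fold above 0 d on days 4, 7 and 14 (adjusted p = 1.97e-06, 3.95e-07 and 6.22e-07). Gzmb read -4.22, -4.45 and -3.87 on day 0 and -3.54, -3.77 and -3.55 on day 1. Those arrays did not overlap, but the change of 0.55 ± 0.42 was not called (adjusted p = 0.272). Gzmb then read -1.99, -1.99 and -0.64 on day 4 and -0.44, 0.45 and -0.73 on day 7, or 6.22-fold and 15.4-fold above 0 d (adjusted p = 0.00018 and 7.64e-06).

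From 1 to 4 d in the nerve, 7 of 10 members were called higher (Cd3e, Cd4, Cd8b, Cd2, Lck, Prf1 and Gzmb), against 3.4% of probes. Cd3e rose 7.28-fold, Prf1 5.11-fold, Gzmb 4.24-fold, Cd2 3.97-fold and Cd4 3.92-fold (adjusted p = 1.86e-05, 2.64e-05, 0.00274, 0.000131 and 5.78e-05). Arrays of 1 and 4 d were scanned together. From 4 to 7 d no member was called, against 2.6% of probes in either direction. In limma 6 members had an unadjusted p under 0.05, but the share of all probes at that looser limit was not counted. Gzmb came nearest to a call (1.30 ± 0.42, adjusted p = 0.0532). The count was 1 without SN 4 d replicate 3, SN 14 d replicate 2 or SN 14 d replicate 3.

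From 7 to 14 d, 2 of 10 members were called lower, both CD8 genes, against 0.739% of probes. Cd8a read 0.59, 0.63 and 0.23 on day 7 and -0.77, -1.27 and -0.86 on day 14, and fell by 1.45 ± 0.22 on the log2 scale (adjusted p = 0.00262). Cd8b was 2.15-fold lower (adjusted p = 0.00837). With slide as a random block, with SN 7 d replicate 2 left out or with SN 14 d replicate 2 left out, the count was 1, and Cd8b was lost. The other 8 members changed by between -0.77 and 0.26 over this step, and none was called. These days were on different slides and scans, and the part of that in the fall was not tested. The mean normalized signal of the 16 macrophage genes was between 2.40 and 2.57 on day 7 and between 1.65 and 2.10 on day 14, and its part in the fall of Cd8a and Cd8b was not tested.

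**Figure D2:**
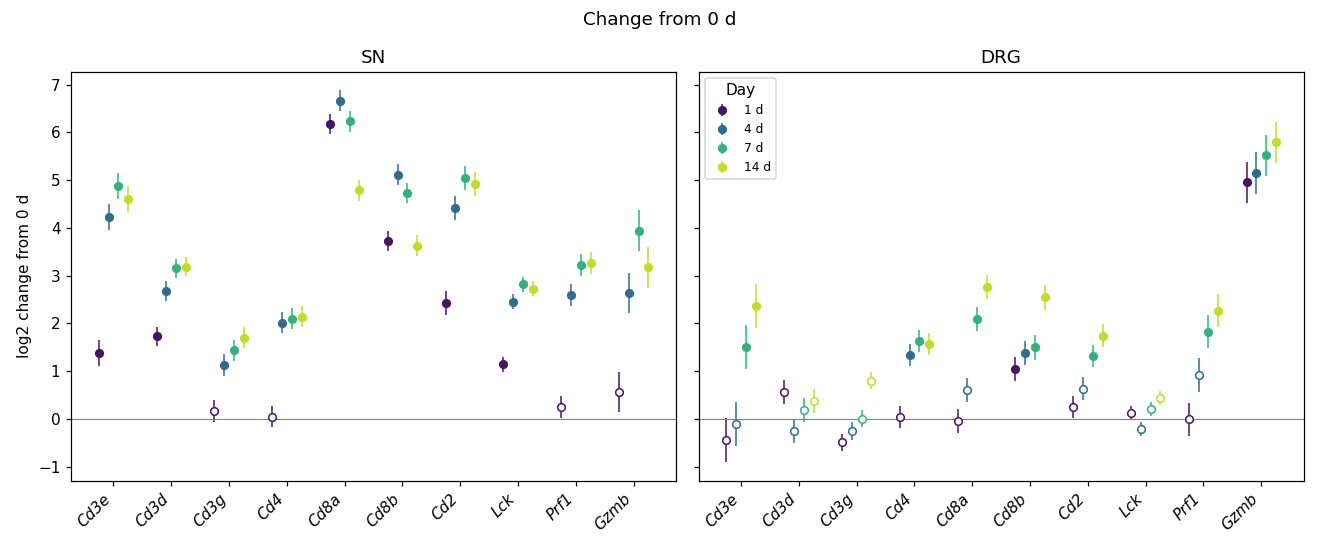
Log2 change from 0 d of each of the 10 genes on days 1, 4, 7 and 14 (purple to yellow), in SN (left) and DRG (right), with bars for the SE of the limma fit; filled points were called. In SN Cd8a stands highest at each day to 7 d, and in DRG Gzmb is near 5 from 1 d on while the other members stay below 3.

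The ganglia showed another order. On day 1, 2 of 10 members were called higher than on day 0 (Cd8b and Gzmb), against 7.43% of probes. On day 4 there were 3 (Cd4, Cd8b and Gzmb), against 6.04%. On day 7 there were 7 (Cd3e, Cd4, Cd8a, Cd8b, Cd2, Prf1 and Gzmb), against 6.58%. On day 14 the called members again numbered 7, with the names of 7 d, against 13%. None was called lower, against 0.169%, 0.506%, 0.326% and 0.46% of probes on days 1, 4, 7 and 14. The median log2 change of the members was 0.0814, 0.617, 1.5 and 2 at the 4 days, and over all probes it stayed between 0.0836 and 0.135. Under a stricter filter, which needs a detectable signal in each array of the pair of groups, 1 member was called on each day. Only Cd3d, Cd3g, Cd8b and Lck could be tested under it. The others, Gzmb among them, were not well above background on each DRG array of 0 d. With a normexp background the counts on days 7 and 14 were 1 and 3, and the calls of Cd3e, Cd4, Cd8a and Cd2 were lost on both days.

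Among the 10 members, granzyme B made the largest change in the DRG on each day. Gzmb read -5.66, -6.17 and -3.93 on day 0, with 2 of 3 arrays well above background. It read -0.55, -0.22 and -0.12 on day 1, -0.16, -0.31 and 0.16 on day 4, -0.11, 0.52 and 0.38 on day 7, and 0.54, 0.25 and 0.83 on day 14. Every later array lay more than 3 log2 units above the highest of 0 d. The log2 changes were 4.95 ± 0.43, 5.15 ± 0.43, 5.52 ± 0.43 and 5.79 ± 0.43, or 31.0-fold, 35.4-fold, 45.8-fold and 55.4-fold (adjusted p = 1.53e-05, 7.51e-06, 3.59e-06 and 2.44e-06). Without DRG 0 d replicate 3, the array that stood apart, they were 5.61, 5.81, 6.18 and 6.45. After 1 d no step of Gzmb between neighbouring days was called.

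Perforin did not follow granzyme B in the ganglia. Prf1 read -5.98, -5.75 and -4.30 on day 0 and -5.28, -5.54 and -5.24 on day 1, which overlapped (-0.0096 ± 0.35, adjusted p = 0.989). It reached -3.35, -3.47 and -3.73 on day 7 and -3.25, -3.37 and -2.63 on day 14, and was 3.55-fold and 4.79-fold above 0 d (adjusted p = 0.00288 and 0.000466). On day 0 replicate 3 was again the highest of the 3 arrays, and without it Prf1 was 2.35 and 2.78 log2 units higher on days 7 and 14 than on day 0. The call on day 7 was lost with a normexp background. Both calls were lost with normexp and quantile normalization together, and with the methods' t-test after Benjamini-Hochberg.

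The granzyme-like probes also rose in the ganglia, with courses of their own. The probe for granzyme-like protein III read -4.35, -4.48 and -4.23 on day 0 and -2.44, -1.55 and -1.66 on day 1, 5.55-fold higher (adjusted p = 6.4e-06). It was highest on day 1 and 2.43-fold above 0 d on day 7 (adjusted p = 0.000622). The probe for granzyme-like protein I read -6.55, -6.69 and -2.86 on day 0, so that a single control array lay above most injured ones, and its change was not called before 14 d (2.38 ± 0.74, adjusted p = 0.0241). In the nerve both rose on day 1, 4.92-fold and 4.71-fold (adjusted p = 7.28e-05 and 2.18e-05), a day at which granzyme B itself was not called.

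**Figure D3:**
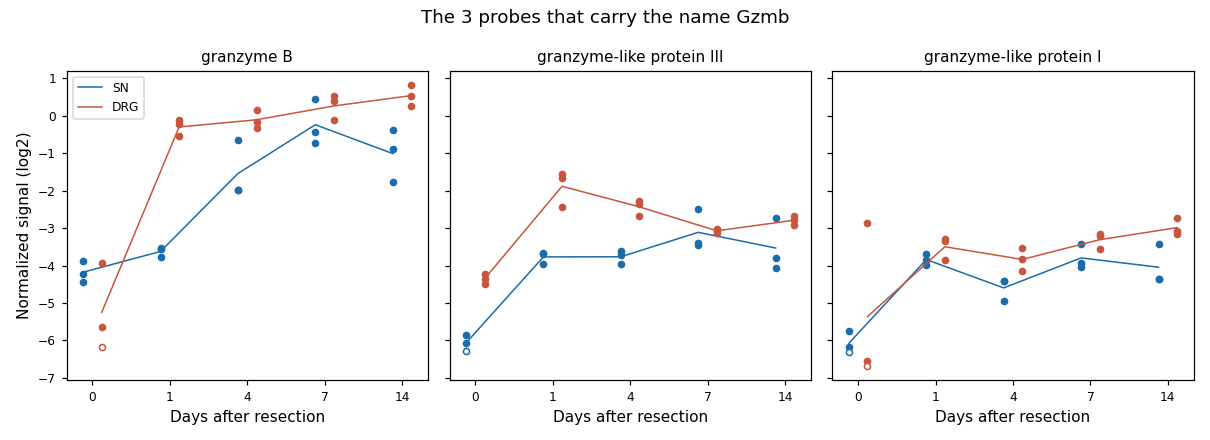
Normalized signal (log2) of the 3 probes named Gzmb on each array, by day after resection, in SN (blue) and DRG (red); lines join means and open points were not well above background. The DRG points for granzyme B lie at or above -0.55 from 1 d on, and 1 DRG array of 0 d lies apart in the granzyme B and granzyme-like protein I panels.

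Cd3e and Cd8a were first detected late in the ganglia. Cd3e was well above background on none of the 9 DRG arrays of 0, 1 and 4 d and on all 6 of 7 and 14 d, where it read -6.47, -6.73 and -6.48, then -6.17, -5.42 and -5.49. Its rise from 0 d was at least 1.1-fold on day 14 (adjusted p = 0.00196). On day 7 it was called (adjusted p = 0.0338), but its mean was under the dimmest detectable level of the 0 d arrays, and no fold can be given. Without any single array of DRG 7 d, or without DRG 0 d replicate 1, the call on day 7 was lost.

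Cd8a in the ganglia appeared in the same way. It was well above background on no array of 0 or 1 d, on 2 of 3 on day 4 and on all on days 7 and 14, where it read -5.28, -5.52 and -5.22, then -4.63, -4.97 and -4.40. It was at least 1.41-fold above 0 d on day 7 and at least 2.25-fold on day 14 (adjusted p = 0.000137 and 1.3e-05). Cd8b was detected throughout, with means of -4.52 ± 0.29 (SD, n = 3) on day 0, -3.47 ± 0.22 on day 1 and -1.97 ± 0.18 on day 14, a rise of 2.06-fold and then 5.84-fold (adjusted p = 0.0152 and 2.97e-05). The call of Cd8b on day 1 was lost with quantile normalization and without DRG 0 d replicate 1 or DRG 1 d replicate 3.

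Cd4 was above background on no DRG array of 0 d and on all of 4 d and later, at least 1.44-fold higher on day 4 and at least 1.77-fold on day 7 (adjusted p = 0.0018 and 0.000458). The dimmest detectable signal was -5.06 and -5.42 on DRG 0 d replicates 2 and 3, against -7.39 to -7.01 on day 4. The part of these unequal limits in the step from undetected to detected was not tested. Cd2 was 2.49-fold above 0 d on day 7 and 3.35-fold on day 14 (adjusted p = 0.00189 and 0.000192), with 1 of 3 arrays detected on day 0. With quantile normalization, and likewise in the authors' matrix, the calls of Cd2 on days 7 and 14 and of Cd4 on days 4 and 14 were lost. The call of Cd4 on day 4 was also lost with a normexp background. The methods' t-test after Benjamini-Hochberg lost the calls of Cd4 on day 4 and of Cd2 on day 7. Lck, Cd3d and Cd3g were not called on any day in the DRG. Lck was between -4.06 and -3.03 on all 15 arrays, with its largest difference on day 14 (0.44 ± 0.15, adjusted p = 0.0345, under 2-fold). Cd3d lay between -0.73 and 0.71 and Cd3g between -2.65 and -1.05, and on day 14 they differed from 0 d by 0.38 ± 0.25 and 0.80 ± 0.19 (adjusted p = 0.248 and 0.00531, the latter under 2-fold).

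Steps between days were small in the ganglia. From 1 to 4 d, 1 member was called higher against 1.52% of probes, which was Cd4 (2.44-fold, adjusted p = 0.00402). From 4 to 7 d, 1 was called higher against 0.137%, which was Cd8a (2.81-fold, adjusted p = 0.0279). That count was 0 with scan as a block, and without any single array of DRG 7 d or without replicate 2 or 3 of DRG 4 d. It was 2 without DRG 0 d replicate 1 or DRG 4 d replicate 1. From 7 to 14 d none was called by limma, against 0.0972% in either direction. There 3 members had an unadjusted p under 0.05, a limit at which the share of all probes was not counted. Cd3g (0.80 ± 0.19, adjusted p = 0.0802) and Cd8b (1.05 ± 0.26, adjusted p = 0.0861) came nearest to a call. The count of calls was 1 without DRG 7 d replicate 1.

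The change in SN was then set against that in DRG in a single fit of all 30 arrays. The difference was called for 7 of 10 members on day 1, 9 on day 4, 8 on day 7 and 8 on day 14. These stand against 35.6%, 45.3%, 38.1% and 32.2% of probes called in either direction, at an adjusted p under 0.05. Cd8a differed most on days 1 and 4, by 6.22 ± 0.34 on day 1 and 6.06 ± 0.34 on day 4 (adjusted p = 1.76e-11 and 9.58e-12), and by 2.02 ± 0.34 on day 14 (adjusted p = 8.87e-05). Its DRG signal on days 0 and 1 was below background, so the difference there is of uncertain size. With slide as a fixed block, so that SN and DRG were compared on shared slides, it was 5.61 on day 1 and 5.94 on day 4.

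Cd2, Lck and Cd3d rose more in SN on every day. Cd2 differed by 2.18 ± 0.35 on day 1 and 3.73 ± 0.35 on day 7 (adjusted p = 6.23e-05 and 2.63e-08), Lck by 1.02 ± 0.22 and 2.61 ± 0.22 (adjusted p = 0.000945 and 3.99e-09), and Cd3d by 1.17 ± 0.33 and 2.96 ± 0.33 (adjusted p = 0.00823 and 2.59e-07). With slide as a fixed block the calls of Lck, Cd3d and Cd3e on day 1 were lost (0.63, 0.60 and 0.94). Those of Lck and Cd3d on days 4, 7 and 14 held, and the calls of Cd3e (1.16, adjusted p = 0.245) and Cd8b (0.945, adjusted p = 0.1) on day 14 were lost. The Cd3e difference on day 1 was also lost without DRG 0 d replicate 2 (1.4), and the calls on day 14 of Cd8b or Cd3g were lost when certain single arrays were left out, SN 14 d replicate 1 for both.

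Gzmb was the only member called in the other direction. Its change was smaller in SN than in DRG by 4.40 ± 0.63 on day 1, 2.51 ± 0.63 on day 4 and 2.62 ± 0.63 on day 14 on the log2 scale (adjusted p = 1.42e-05, 0.00242 and 0.00247). On day 7 the difference of -1.58 ± 0.63 missed the threshold (adjusted p = 0.0518), and with quantile normalization or without DRG 0 d replicate 3, among other settings, 1 member was called lower in SN on that day. Without that array the Gzmb differences on days 1, 4 and 14 were -5.06, -3.17 and -3.28. On the slide that held 3 arrays of SN and 1 of DRG on day 1, Gzmb was 3.08 log2 units lower in SN, while on the shared slide of 0 d it was 1.48 higher. With slide as a fixed block the differences were -4.55, -2.01 and -2.39, and the call on day 4 was lost (adjusted p = 0.0677). Read by the probe for granzyme-like protein III, the difference was -0.17 on day 1 and 0.38 on day 4, neither called, and on day 7 it was 1.67 ± 0.39, higher in SN (adjusted p = 0.00147). Prf1 rose more in SN by 1.68 on day 4 and 1.40 on day 7, and both calls were lost with slide as a fixed block. Cd4 was not called on any day, with differences between -0.0013 and 0.68 and SE 0.33.

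**Figure D4:**
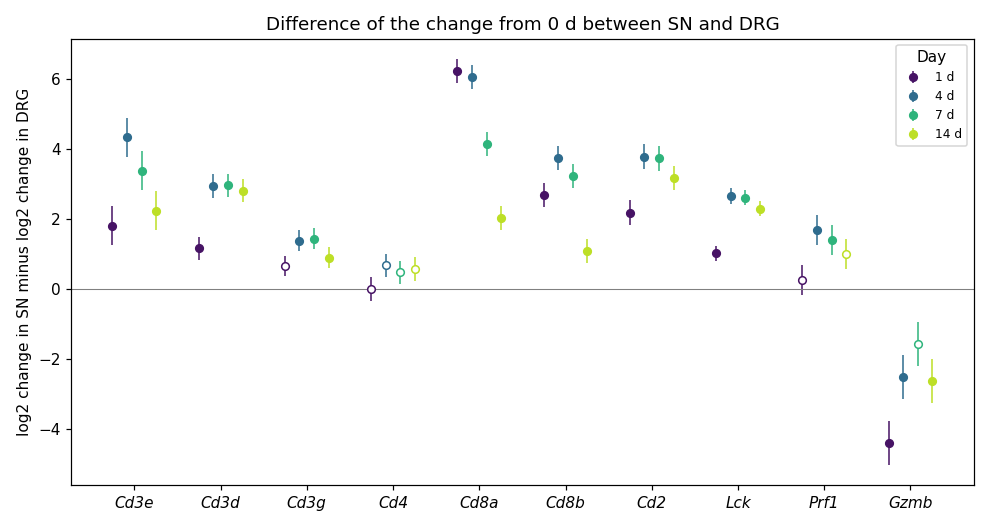
Log2 change from 0 d in SN minus that in DRG for each of the 10 genes on days 1, 4, 7 and 14 (purple to yellow), with bars for the SE of the fit on 30 arrays; filled points had an adjusted p under 0.05. Gzmb lies below 0 on every day, from -4.40 on day 1, while Cd8a lies at 6.22 on day 1 and 2.02 on day 14.

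Before injury the tissues differed too. On day 0, 6 of 10 members were called different between SN and DRG, against 36.2% of probes. Higher in SN were Cd3g (4.20-fold, adjusted p = 7.22e-09), Prf1 (3.18-fold, adjusted p = 4.59e-05), Gzmb (2.11-fold, adjusted p = 0.0368), Cd4 (at least 1.23-fold, adjusted p = 0.000236) and Cd8a (at least 1.06-fold, adjusted p = 1.82e-06). Cd3d was 2.96-fold higher in DRG (adjusted p = 2.71e-06). The Gzmb arrays of both tissues overlapped on day 0. Its difference was 1.07, and 1.73 without DRG 0 d replicate 3, and its call was lost without DRG 0 d replicate 1 or 2 or without SN 0 d replicate 1 or 3. The Cd4 call was lost without DRG 0 d replicate 1 or SN 0 d replicate 3, and that of Cd3d with slide as a fixed block. Cd3e was not well above background in either tissue. Whether the differences of Cd3d and Cd3g on day 0 came from T cells was not tested.

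Most other genes of T cell receptor signalling and T cell identity were called higher in the nerve from 4 d on. Of 33 tested, 9 were called higher and 1 lower on day 1, against 18.6% and 3.43% of all probes. There were 26 higher on day 4, 29 on day 7 and 29 on day 14, against 15.9%, 18.1% and 14.3%. The median log2 change of the list was 2.56 on day 7. Examples on day 7 were Sh2d1a, an adaptor of T and NK cells (4.69 ± 0.30), Bcl11b, a transcription factor of T cells (4.12 ± 0.35), and Cd5, a receptor of T cells (4.06 ± 0.25; adjusted p = 1.77e-07, 1.24e-06 and 1.23e-07). Cd96, an adhesion receptor of T and NK cells, and Cd247, the zeta chain of the receptor complex, were undetected on day 0 and were at least 3.55-fold and at least 4.29-fold higher (adjusted p = 5.34e-06 and 2.36e-07). In the DRG, of 29 tested, 5 were higher and 1 lower on day 1, 5 higher on day 4, 9 on day 7 and 15 on day 14, and the median log2 change on day 7 was 0.704.

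Genes of cytotoxic and NK cells were 8 higher and 1 lower of 20 tested in SN on day 1, against 18.6% and 3.43% of all probes. On days 4, 7 and 14 they were 16, 17 and 18 higher, against 15.9%, 18.1% and 14.3% (median log2 change 3.31 on day 7). Ctsw, a protease of cytotoxic cells, was at least 41.2-fold higher on day 7, Ifng, interferon gamma, at least 3.37-fold, and Klrb1a, an NK cell receptor, rose by 4.01 ± 0.23 (adjusted p = 1.14e-07, 2.25e-05 and 7.98e-08). Ncr1, a receptor of NK cells, was detected on no array of either tissue on day 0 and on every later one. It was at least 2.21-fold higher on day 1 in SN and at least 1.29-fold in DRG (adjusted p = 5.26e-06 and 0.0023).

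In the DRG 3 of 18 genes of the cytotoxic and NK list were called higher on day 1 (Gzmc, Ncr1 and Xcl1), 6 on day 4, 10 on day 7 and 12 on day 14. The shares of all probes were 7.43%, 6.04%, 6.58% and 13%. Xcl1, a chemokine made by activated T and NK cells, was undetected on day 0 and had a mean of -3.40 ± 0.24 (SD, n = 3) on day 1 and -1.48 ± 0.25 on day 4. It was at least 5.33-fold and then at least 20.1-fold higher (adjusted p = 7.29e-05 and 8.22e-07). As with Gzmb, its change on day 1 was smaller in SN than in DRG (-2.27 ± 0.47, adjusted p = 0.000707). Of the 18 genes of the list, 4 were called smaller in SN on that day, Xcl1 among them, against 19.7% of all probes. Called larger were 3, Ctsw among them, against 15.9%. Both counts were near the share over all probes. The median log2 difference was 0.312.

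Other leukocyte genes moved beside the members. In SN on day 1, 10 of 16 macrophage genes, 5 of 7 neutrophil genes and 5 of 7 B cell genes tested were called higher, as were 8 of 11 genes of all leukocytes, among them Ptprc (1.69 ± 0.17). Over all probes the share was 18.6%. The mean normalized signal of the macrophage list went from between 0.80 and 1.03 on day 0 to between 2.12 and 2.35 on day 1, and that of the neutrophil list from between -4.38 and -3.80 to between -1.44 and -0.79. In the DRG on day 1, 0 of 15 macrophage genes and 0 of 11 genes of all leukocytes were called by limma, and 1 of 7 neutrophil genes. Over all probes the share there was 7.6% in either direction. On day 7 Cd68 and Csf1r, markers of macrophages, had risen by 2.52 and 1.70 in SN and by 1.42 and 1.17 in DRG. Ms4a1, which marks B cells, was tested in DRG alone and not called there on any day, and in SN no day had it detected in each of its 3 arrays. Of 8 mast cell genes, 6 were called lower and 1 higher in SN on day 7, the latter being Kit, a growth factor receptor, named here after its value was seen. Over all probes 6.81% were lower and 18.1% higher on that day. The part of these cells in the members' values was not tested.

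**Figure D5:**
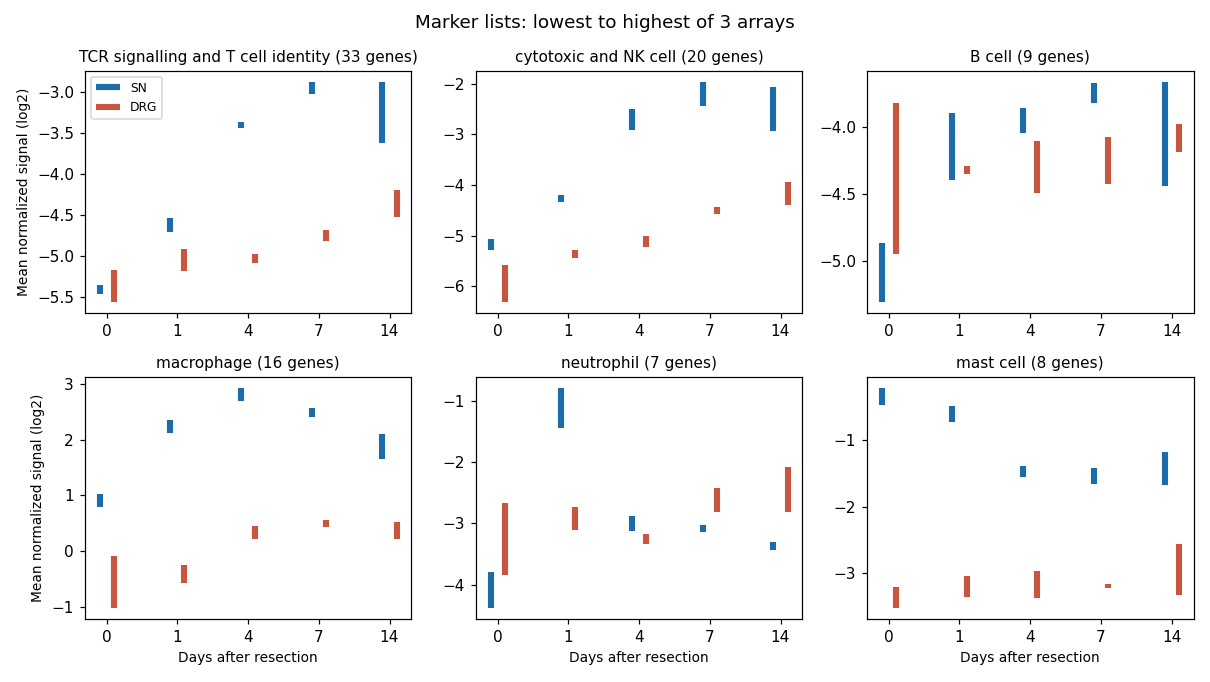
Mean normalized signal (log2) of 6 marker lists, by day after resection; each bar runs from the lowest to the highest of 3 arrays, in SN (blue) and DRG (red). The T cell and cytotoxic lists climb in SN to 7 d, the neutrophil list peaks in SN on day 1 between -1.44 and -0.79, and the mast cell list declines in SN.

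Of 15 genes for ligands and partners of the members, 1 was called higher in SN on day 1, 7 on day 4, 9 on day 7 and 8 on day 14, and in DRG 0, 6, 8 and 8 by limma. The shares of all probes were 18.6%, 15.9%, 18.1% and 14.3% in SN and 7.43%, 6.04%, 6.58% and 13% in DRG. The class II gene RT1-Bb, whose product CD4 binds, rose by 1.88 ± 0.21 in SN and by 3.09 ± 0.22 in DRG on day 7. Ciita, the regulator of class II genes, Cd80 and Cd86, both ligands of T cell costimulation, were called in both tissues on day 7. Of 11 genes for T cell attraction and survival, 0 were called in either tissue on day 1, and on day 7 6 were higher and 1 lower in SN and 2 higher in DRG. Of all probes, 22.1% in SN and 7.6% in DRG were called on day 1. On day 7, 18.1% were higher and 6.81% lower in SN, and 6.58% were higher in DRG. Cxcl11 and Cxcl10, ligands of the T cell receptor for chemokines CXCR3, rose by 5.85 and 3.02 in SN on day 7, and Ccl5 by 3.53.

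Over the means of the 10 groups of arrays, the genes whose course was most like that of each member were sought among 15427 genes tested in both tissues. Pearson's r is a description over points that share arrays. Cd3e was closest to LOC683758 (0.990), Tcrb, the beta chain of the T cell receptor (0.988), and Ctsw (0.986). Prf1 was closest to Tcrb (0.997), Klrd1 and Cxcr3 (0.996 each). Lck was closest to LOC299915, a probe annotated as similar to the same kinase (0.993), Ldb1 (0.979) and Zap70, the kinase that binds phosphorylated CD3 chains (0.974). Cd4 was closest to Klrd1 (0.988), Gpr171 (0.983) and Klrc3 (0.981), and Cd2 to Sept1 (0.995), Lrit3 (0.991) and Dok1 (0.990).

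The remaining members had other neighbours. Cd8a was closest to Duox1 (0.993), RGD1559808 (0.990) and Spred3 (0.989), and Cd8b to RGD1559914 (0.992), Abcb4 (0.991) and Ccnf (0.986). Cd3g was closest to Tmem138 (0.995), Yeats2 (0.992) and Usp21 (0.991), and Cd3d to LOC360824 (0.960), Extl3 (0.954) and Frmd8 (0.953), and none of these 6 was on a lymphocyte list. Gzmb was closest to RGD1562700 (0.972), Als2cr7 (0.964) and Psx1 (0.961). The first is annotated as similar to a natural killer cell protease that the annotation also names granzyme B. Among the members, Cd8a and Cd8b had r of 0.961, Cd3e and Cd2 0.972, Cd3d and Cd3g 0.483, and Gzmb and Prf1 0.291.

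Promoters were read for the granule genes, since their courses parted in the ganglia. RefSeq sequence on build GRCr8 was held for 8 of 10 members, not for Cd4 or Cd8b. The 250 bases before the start are shown for Gzmb (chromosome 15, 34462470 to 34462719, minus strand) and Prf1 (chromosome 20, 29788790 to 29789039, plus strand). Capitals mark TGTGGT and TGACGT on either strand, the cores of RUNX and CRE sites.
Gzmb: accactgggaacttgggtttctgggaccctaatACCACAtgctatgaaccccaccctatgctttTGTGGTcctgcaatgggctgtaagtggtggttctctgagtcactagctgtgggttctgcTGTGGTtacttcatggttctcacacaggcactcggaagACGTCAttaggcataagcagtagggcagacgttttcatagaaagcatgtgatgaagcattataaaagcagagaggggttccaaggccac
Prf1: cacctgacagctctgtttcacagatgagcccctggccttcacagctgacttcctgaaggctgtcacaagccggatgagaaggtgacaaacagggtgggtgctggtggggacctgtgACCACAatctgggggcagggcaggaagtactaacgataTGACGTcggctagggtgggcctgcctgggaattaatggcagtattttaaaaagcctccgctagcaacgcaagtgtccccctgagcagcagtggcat
TGTGGT occurred 3 times in Gzmb and once in Prf1, and in 14.5% of all 33469 promoter windows of this length. TGACGT occurred once in each, and in 6.95% of all windows. AGGAAG, an ETS core, occurred 2 times in Prf1 and not in Gzmb (29.5% of windows), and TGANTCA, the AP-1 site, once in Gzmb and not in Prf1 (6.34%). Both strands were searched, no other match overlapped the marked letters, and a match is a description of the sequence only.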

How the data were processed

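RNA of 30 samples (SN and DRG at 0, 1, 4, 7 and 14 d, 3 arrays each) was labelled with Cy3 and hybridised to Agilent whole-genome rat arrays, 1 sample per array. The deposited scanner files, made by the authors with Feature Extraction 10.5.1.1, hold spot intensity, background-subtracted and detrended within each array but not normalized between arrays. The authors also deposited a matrix of log2 signals with the same distribution on all arrays, which served as an alternative. How that matrix was made is not given in the sources used here beyond the software name.

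Groups came from the sample titles. Control spots and spots flagged as outliers were left out, spots of 1 probe were averaged, and log2 processed signal minus the 75th percentile of each array was used. A probe entered the test of a tissue if all 3 arrays of any day there read it well above background. limma 3.58.1 in R 4.3.3 was fitted to the 15 arrays of a tissue, or to all 30 for differences between tissues, with Benjamini-Hochberg adjustment over all probes tested. Calls needed an adjusted p under 0.05 and, except for differences of change between tissues, over 2-fold. Where no array of a group was well above background, "at least" folds use the dimmest detectable signal of each of its arrays, or the probe's own if higher. The brightest probe stood for a gene. Of 164 entries on the other gene lists, 152 had a probe. From each list up to 4 genes are named, those with the largest change at 7 d in SN whose arrays lay apart from 0 d, plus Ptprc, Cd68, Csf1r, Ms4a1, Ncr1 and Cd247. Another gene of that rule and a probe sequence are not reported here. The members and lists were chosen with earlier results of these data known. No spot was saturated, and the number of arrays limits the precision. The script was tested on simulated data. Background correction, scaling, filters, blocks, the methods' t-test, probe choice and left-out arrays were varied (48 settings).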

Additional observations from a re-analysis of the deposited data

Results flagged for a closer look

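Differences of the change from 0 d between SN and DRG that passed an adjusted p of 0.05 in the limma fit of 30 arrays were listed for each member, as log2 change in SN minus log2 change in DRG. Cd8a differed by 6.22, 6.06, 4.14 and 2.02 at 1, 4, 7 and 14 d, and Cd8b by 2.68, 3.73, 3.23 and 1.08. Cd2 differed by 2.18, 3.78, 3.73 and 3.17, and Lck by 1.02, 2.66, 2.61 and 2.29. Among the CD3 chains, Cd3e differed by 1.81, 4.33, 3.37 and 2.24, and Cd3d by 1.17, 2.94, 2.96 and 2.81. Cd3g differed by 1.38, 1.44 and 0.90 at 4, 7 and 14 d. Prf1 differed by 1.68 at 4 d and 1.40 at 7 d. Gzmb differed in the other direction, by -4.40 at 1 d, -2.51 at 4 d and -2.62 at 14 d. For Cd3e and Cd8a these sizes rest on signals below background at 0 d in DRG, and for Cd3e in SN as well.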

How the results depend on the processing

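Each of 104 called results of single members was set against up to 48 other settings. Of 3633 such pairs, 3482 kept direction and call, 140 lost the call and 11 changed sign, and 55 results were never lost. The SN counts on days 4, 7 and 14 stayed between 8 and 10. Counts of members called that moved over 1.5 times are given here. With quantile normalization, and likewise in the authors' matrix, DRG day 1 had 1, DRG 4 d against 1 d had 2 and DRG 7 d against 4 d had 0. With a normexp background there were 3 in SN on day 1, 1 in SN 14 d against 7 d, 1, 1 and 3 in DRG on days 1, 7 and 14, and 0 in DRG 4 d against 1 d and 7 d against 4 d. Differences between tissues numbered 3 on day 1, 5 on day 14 and 3 at 0 d. With normexp and quantile together there were 3 in SN on day 1, 1 in SN 7 d against 4 d, 1, 1, 1 and 2 in DRG on days 1, 4, 7 and 14, 0 in both later DRG steps, and 2 between tissues at 0 d. A percentile over probes well above background on all arrays gave 1 in SN 7 d against 4 d. The stricter filter on dim probes, under which fewer members could be tested, gave 1 in DRG on each day, 0 in DRG 4 d against 1 d and 7 d against 4 d, 3, 4, 4 and 4 for the differences of change, and 2 at 0 d. Slide as a random block gave 1 in SN 14 d against 7 d. Scan as a fixed block gave 0 in DRG 7 d against 4 d and 1 in DRG 14 d against 7 d. Fits of only the arrays compared gave 0 in DRG 7 d against 4 d. The methods' t-test gave 2 there at an unadjusted p, and after Benjamini-Hochberg 0 there, 0 in SN 14 d against 7 d, 1 and 3 in DRG on days 1 and 7, and 0 in DRG 4 d against 1 d. Read by the granzyme-like protein I probe, DRG day 1 had 1. Leaving out 1 array gave 1 to 2 for DRG day 1, 0 to 2 for DRG 7 d against 4 d, 0 to 1 for DRG 14 d against 7 d and SN 7 d against 4 d, and 1 to 2 for SN 14 d against 7 d.

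Signs turned for Cd3e, in SN minus DRG on day 1 (-0.0921 with quantile, -0.455 with normexp, -0.0186 in the authors' matrix) and in SN on day 1 (-0.118 with normexp). They turned for Cd8a in DRG 7 d against 4 d (-0.104 with normexp). Read by the granzyme-like protein III probe, Gzmb gave 0.38 and 0.97 for SN minus DRG on days 4 and 14 and -1.71 at 0 d. Read by the granzyme-like protein I probe it gave -0.758 for SN 4 d against 1 d, 0.368 for SN minus DRG on day 1 and -0.71 at 0 d. The causes were not tested, beyond that other probes read other transcripts. With the replicate number as a block, DRG 7 d against 4 d went from 1 to 0, and no other call was lost. SN minus DRG on day 7 went from 8 to 9. Same-numbered arrays did not deviate together (r between -0.193 and 0.252 over 15 SN and DRG pairs), so the numbers were not taken as pairs. A fit with day and replicate number as a block was chosen after seeing the data, lost no call and also gave 9 on day 7. Signals near background limit Cd3e, Cd4, Cd8a and Cd2.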

Other observations

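Of the DRG arrays of day 0, replicate 3 was the highest for Gzmb (-3.93 against -5.66 and -6.17), Prf1 (-4.30 against -5.98 and -5.75) and the probe of granzyme-like protein I (-2.86 against -6.55 and -6.69), while for Cd3e it lay between the others (-7.68 against -9.27 and -7.24). On that array the mean normalized signal of the 16 macrophage genes was -0.089, against -1.02 and -0.66. In SN on day 14, replicate 2 was the lowest array for 9 of the 10 members, Cd4 being the exception. The share of all probes lowest on that array was not counted. The mean of the macrophage genes was lowest there too (1.65 against 2.10 and 2.05), as was that of the genes of all leukocytes (0.24 against 0.65 and 0.56).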
